A study of Rattus norvegicus with 6 samples.

Results

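The genes described here are 10 glycosyltransferases of the rat ileum, Galnt12, C1galt1, Gcnt3, B4galt4, Fut2, Fut8, St3gal1, St3gal4, St6gal1 and St6galnac1. They were chosen by name, as enzymes that build and cap the glycans of mucins and of the cell surface, and all 10 were found among the 28282 gene symbols of the count tables. Each library held nuclei of the ileum of 1 rat, and all rats were wild-type Sprague-Dawley males aged 6 weeks. Severe acute pancreatitis (SAP, 3 rats) was produced by running 3% sodium taurocholate, 0.1 mL per 100 g of body weight, backwards into the duct of the pancreas and clamping it for 5 min. Control rats (CON, 3 rats) had the abdomen opened with no infusion, and both groups were killed at 24 h. Rats of both groups were fasted after surgery with free access to water, so fasting, anesthesia and surgery were shared, and CON rats were not untreated.

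Glycans on mucins start with a single sugar on a serine or threonine, are built into a core, are lengthened by alternating sugars and are ended by fucose or sialic acid. On N-glycans, fucose is also added to the innermost sugar. In the gut, goblet cells carry much of this machinery because they secrete heavily glycosylated mucins, and fucose and sialic acid on the epithelial surface are used by resident bacteria as food and as attachment points. None of the reactions themselves was measured here, only the nuclear RNA of the enzymes.

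Of 90461 barcodes, 40970 nuclei passed the quality limits, 3189 to 9246 per library, with 5549260 to 28771508 UMIs (unique molecular identifiers, counted RNA molecules) per library. The libraries CON 2 and SAP 1 listed barcodes with fewer than 1000 UMIs, which the other 4 did not, and are called low-depth libraries below. The median mitochondrial share was 0.125% to 0.7% in CON and 0.387% to 1.84% in SAP libraries. Cell names in the files are running numbers, so the 5398 names that occur in more than 1 library do not show shared nuclei. Clusters were named from marker genes with the ending "-like", and 16 classes held at least 10 nuclei in every library and could be compared, 8 of them epithelial. All 14 enterocyte, all 8 goblet and all 8 Paneth markers in the tables were higher in the class of that name than in other nuclei, as a check of names that the same markers gave. The ileal bile acid transporter Slc10a2 stood at a mean of 304 ± 159.5 CPM (UMIs per 1000000 UMIs of the class in a library, SD, n = 6 rats) in enterocyte-like nuclei. Cluster 1, led by Ceacam20 and Car4 and closest to enterocyte-like nuclei, and cluster 8, led by Gfra4 and Kif19, stayed unnamed. So did cluster 13, which was counted as outside the epithelium because it was closest to T-like nuclei. Cluster 8 was closest to goblet-like nuclei by the measure used for clusters 1 and 13, but scored highest for Paneth markers. Its Mmp7 was at a mean of 629 CPM (452 in Paneth-like nuclei) and its Defa24 at 20334 (38514 in Paneth-like nuclei). Of stem cell genes, its Lgr5 was at 330.2 (120.7 in stem/TA-like nuclei) and its Olfm4 at 221 (531 in stem/TA-like nuclei).

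Levels are given in CPM, which relates the UMIs of a gene to all UMIs of the same class in the same library. They were not divided by gene length, so levels are compared between classes and rats, not between genes. With 148 UMIs in all, St6galnac1 was the most sparsely counted of the 10 genes, and Fut8 had 45659.

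The starts of St6gal1 and St3gal4 are shown because these genes had the largest differences between SAP and CON rats among the 10. RefSeq (GRCr8) gave promoter entries for 9 of the 10 genes. These are the 250 bases before the listed start of each gene, read 5′ to 3′ along the gene, with matches to the motifs named next in capitals.
St6gal1, chr11:91040405-91040654, minus strand: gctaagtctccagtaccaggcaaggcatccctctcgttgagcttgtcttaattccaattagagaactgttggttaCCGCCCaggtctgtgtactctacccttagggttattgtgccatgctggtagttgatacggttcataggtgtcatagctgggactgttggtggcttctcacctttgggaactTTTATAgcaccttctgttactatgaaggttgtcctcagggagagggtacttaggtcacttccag
St3gal4, first of 3 listed starts, chr8:41723159-41723408, minus strand: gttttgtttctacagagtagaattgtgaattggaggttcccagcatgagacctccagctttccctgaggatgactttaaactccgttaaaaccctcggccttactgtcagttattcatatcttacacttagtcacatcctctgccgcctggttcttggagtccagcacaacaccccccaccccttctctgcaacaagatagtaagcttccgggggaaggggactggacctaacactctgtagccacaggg

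Both strands were searched for 6 motifs, with no overlap between motifs in these 2 windows. The STAT motif was searched as TTCNNNGAA and is held by 7.67% of the same windows of all 33469 RefSeq promoters. The motif of AP-1 was searched as TGANTCA (6.34% of promoters), the half-site of HNF1 as GTTAAT (6.45%) and the TATA box as TATAAA (12.9%). For the E-box the letters were CACGTG (5.59%), and for the GC box they were GGGCGG (30.5%). The St6gal1 window held the TATA letters on the opposite strand, 59 to 64 bases before the start, and a GC box on the opposite strand, 170 to 175 bases before it. The first St3gal4 window held none of the 6, and the third listed start held an AP-1 match 7 to 13 bases before it. A STAT match stood 37 to 45 bases before the Gcnt3 start and 199 to 207 bases before the Galnt12 start. These are matches of letters, and the counts do not say which start was used. The count tables were made on build mRatBN7.2, so these positions and those of the reads are on different builds.

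The first question was where in the ileal mucosa each enzyme was counted. Goblet-like nuclei had the highest mean of all 16 classes for Galnt12, C1galt1, B4galt4, Fut2, Fut8, St3gal1 and St6galnac1, and enterocyte-like nuclei for Gcnt3 and St3gal4. St6gal1 had its highest class means outside the epithelium, although 1 of the 3 clusters pooled as enterocyte-like, cluster 7, was as high (140.1 ± 97.1 SD, n = 6). These are descriptions with no test, since the classes were made from the same nuclei, although the 10 genes were left out of the genes used for clustering. A difference between neighbours in the order of classes is said to exceed the spread where its mean over the 6 rats is larger than the SD of the 6 within-rat differences.

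**Figure D1:**
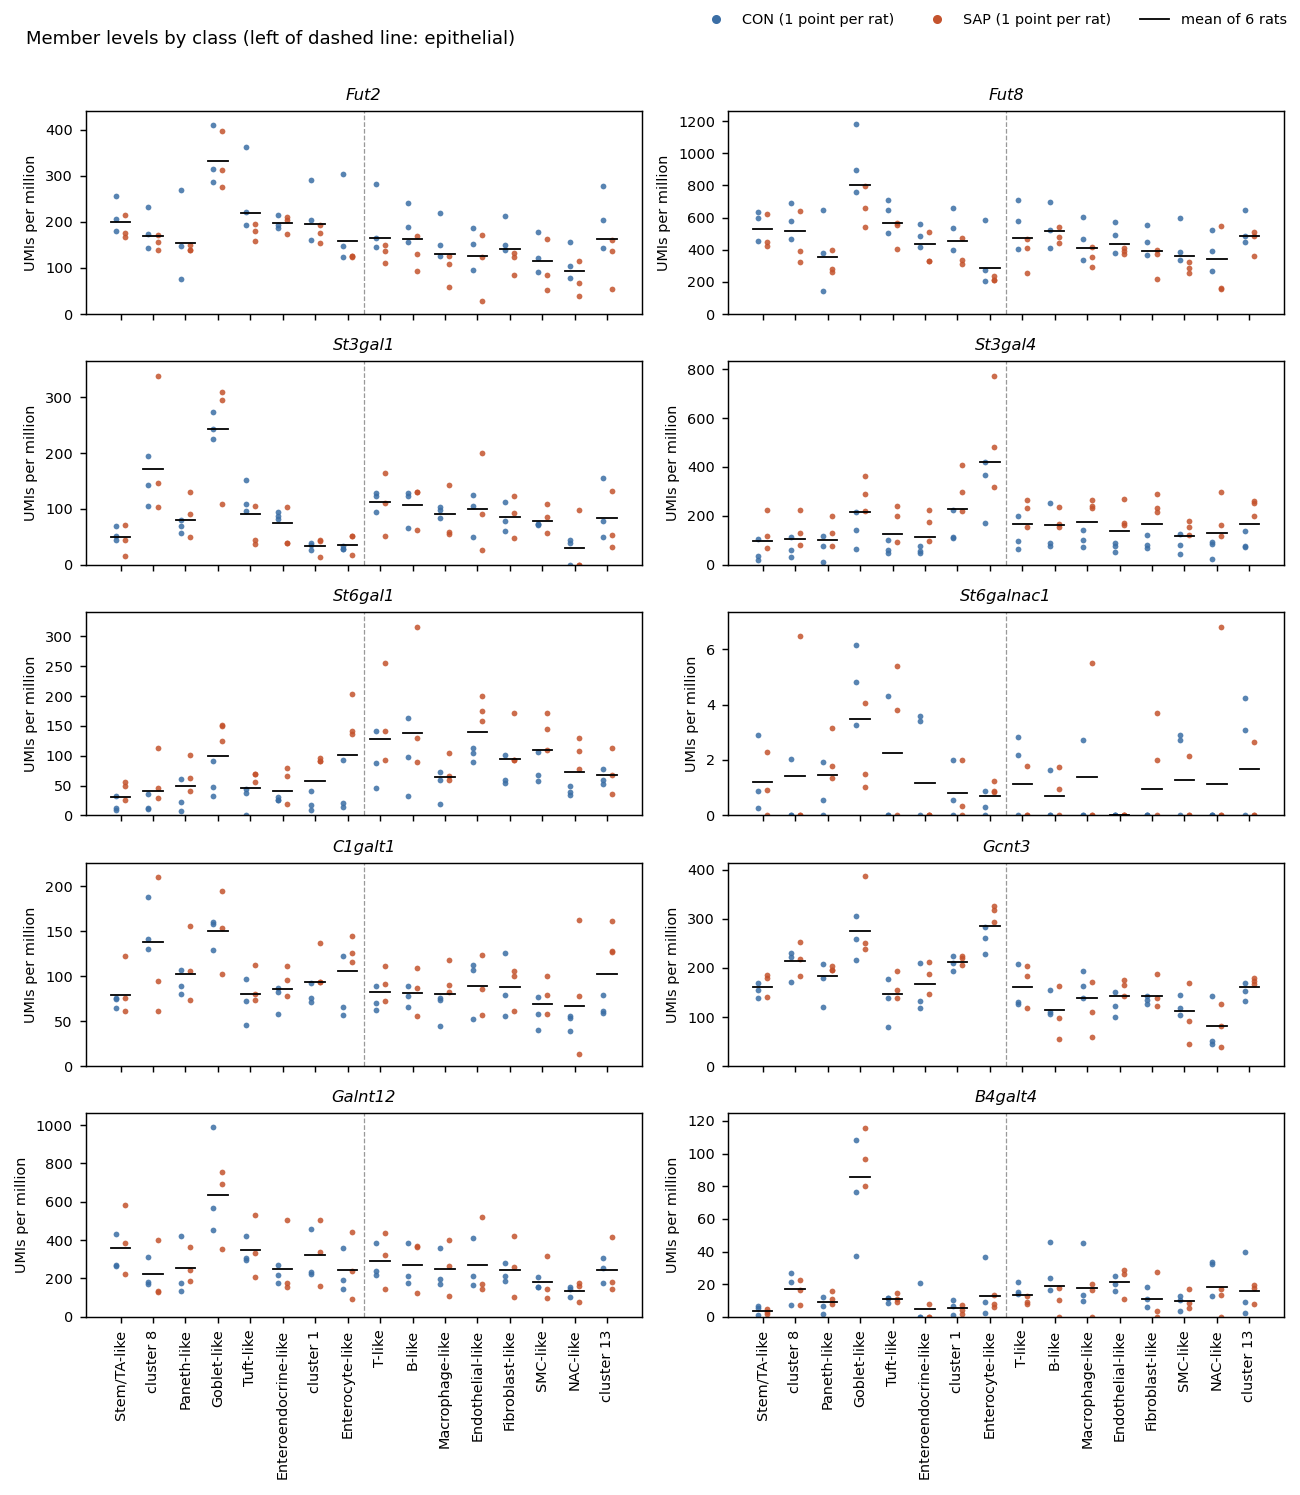
Level of each of the 10 genes in 16 classes, in CPM (vertical axes start at 0 and differ between panels), with 1 point per rat, CON in blue and SAP in red-orange, epithelial classes left of the dashed line, and a bar at the mean of 6 rats. B4galt4 was highest in goblet-like nuclei, at a mean of 85.8, and St3gal4 in enterocyte-like nuclei, at a mean of 422.

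Galnt12, which places the first sugar of mucin-type glycans, was at 356 to 988 CPM in goblet-like nuclei (mean 636 ± 227 SD, n = 6 rats). Stem/TA-like nuclei came next at 360.1 ± 136 (SD, n = 6), and all 6 rats had more in goblet-like nuclei. From stem/TA-like nuclei down to NAC-like (neuron-associated) nuclei at 136 ± 37.3, no neighbouring classes differed beyond their spread.

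C1galt1 adds galactose to that first sugar and so makes the commonest core. Its level was 149.9 ± 31.3 (SD, n = 6) in goblet-like nuclei and 138 ± 55.8 in cluster 8, a difference within the spread and with the first higher in 3 of 6 rats. No neighbouring classes differed beyond their spread for this gene. Gcnt3, which branches mucin cores with N-acetylglucosamine, was at 285 ± 37.2 (SD, n = 6) in enterocyte-like and 276 ± 62.1 in goblet-like nuclei, again within the spread. Cluster 8 (214 ± 30.03) and cluster 1 (213 ± 12.4) followed.

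B4galt4, one of the galactosyltransferases that lengthen chains, had the clearest preference for a class. Goblet-like nuclei held 37.3 to 115 CPM (mean 85.8 ± 28.2 SD, n = 6), and each of the other 15 classes had a mean of 21.2 or less. Mesothelial-like nuclei, too few in some libraries to be compared, had a mean of 44.9. The lowest goblet-like value, 37.3 in CON 1, was above the mean of each of those 15 classes, and all 6 rats had more in goblet-like nuclei than in the next class. Single rats passed that value in other classes, reaching 45.5 in B-like, 45 in macrophage-like and 39.7 in cluster 13 nuclei.

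Fut2 adds the fucose of the H antigen, which on secreted mucins depends on this enzyme. It was at 276 to 411 in goblet-like nuclei (mean 333 ± 57.3 SD, n = 6), above tuft-like nuclei (219 ± 73.9) in 6 of 6 rats. Tuft-like, stem/TA-like, enteroendocrine-like and cluster 1 nuclei followed at means of 196 to 219, and no neighbours among them differed beyond their spread. Fut8 adds the core fucose of N-glycans. Its goblet-like level was 805 ± 219.7 (SD, n = 6), again above tuft-like nuclei (564 ± 108) in 6 of 6 rats, and its lowest mean was in enterocyte-like nuclei, 288 ± 148.

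St3gal1, which puts sialic acid on the core that C1galt1 makes, was at 242 ± 72.7 (SD, n = 6) in goblet-like nuclei and 171 ± 87.8 in cluster 8, a difference within the spread. Enterocyte-like (34.7 ± 13.9) and cluster 1 nuclei (33.4 ± 11.7) had the lowest epithelial means. St3gal4 adds sialic acid to the galactose ends of longer chains and ran the other way. It was at 172 to 772 in enterocyte-like nuclei (mean 422 ± 201 SD, n = 6), above cluster 1 (229.8 ± 114) in 6 of 6 rats and above the spread, and stem/TA-like nuclei had the lowest mean of the 16 classes, 95.4 ± 72.9.

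St6gal1 adds sialic acid to the same ends in a different linkage and is known for its role on B cells and on secreted plasma proteins. Endothelial-like (139.7 ± 44.3 SD, n = 6), B-like (138 ± 97.1) and T-like nuclei (127 ± 72.1) led, and no neighbours in its order differed beyond their spread. Within the epithelium, enterocyte-like (102 ± 74.1) and goblet-like nuclei (99.7 ± 51.3) were highest and stem/TA-like nuclei lowest (30.5 ± 19.4). St6galnac1, which adds sialic acid to the first mucin sugar, was nearly uncounted. Goblet-like nuclei had 12, 10 and 8 UMIs in CON 1 to 3 and 2, 1 and 3 UMIs in SAP 1 to 3, or 1.04 to 6.14 CPM, where 3 counts correspond to 1.2 to 6.08 CPM. Differences between its neighbouring classes were mostly not detectable at this depth, and this limit covers counting error only.

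Low levels need a second reading, because RNA freed from broken cells can be counted with any nucleus. Epcam, Cdh17, Vil1 and Elf3 are 4 epithelial genes, chosen after the values were seen. They were assumed, without a check, to be absent from blood, vessel, muscle and nerve nuclei. In the 8 classes outside the epithelium, they stood at 38% to 88.9% of their level in epithelial nuclei. These 8 include the unnamed cluster 13, which is not shown to be any of those cell types and had Muc2 at 105% of its epithelial level. The medians of Fut2 (69.1%), Gcnt3 (65.2%) and Galnt12 (72.6%) were near those of the 4 genes (61.7% to 72.5%). Their levels in these 8 classes are not read as expression. Mesothelial-like and fat-like nuclei, too few in some libraries to be compared, had Galnt12 at 105% and 108%. There the 4 genes stood at 66.2% to 89.9%, and Fut2 and Gcnt3 at 40.9% to 69.7%. The medians of C1galt1 (77.5%) and St3gal4 (79%) were a little above the 4 medians and within the range of the single classes. The medians of Fut8 (90.2%), B4galt4 (93.3%), St3gal1 (108%) and St6gal1 (156%) were higher. The goblet marker Muc2 stood at a median of 71.6% outside the epithelium.

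**Figure D2:**
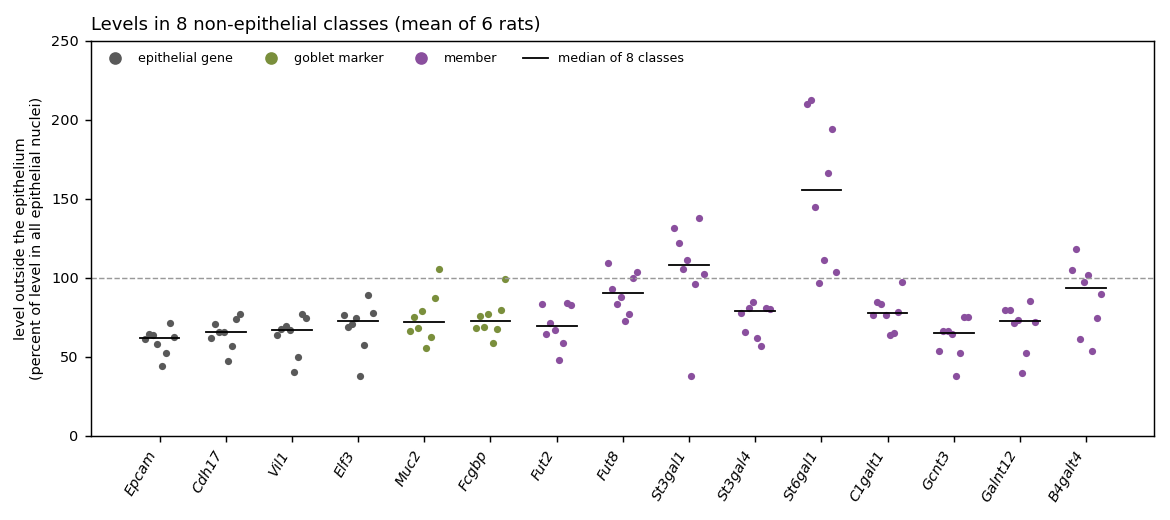
Level in each of 8 non-epithelial classes as a percent of the level in all epithelial nuclei (means of 6 rats, 1 point per class, bar at the median), for 4 epithelial genes in grey, 2 goblet markers in green and 9 of the 10 enzymes in purple. St6gal1, with a median of 156%, was the enzyme furthest above the epithelial genes, and St6galnac1 is not drawn because it had too few UMIs.

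The genes whose levels over 19 classes were most like each enzyme were found by Pearson's r of log2(level + 1), among 13369 genes that reached 20 CPM in at least 1 class. The classes share libraries and free RNA, and r is given as a description. Fut2 was closest to Llgl2 (0.91), Tspan1 (0.9) and Tmprss4 (0.87), and Fut8 to Gne (0.87), Esrp1 (0.86) and Galnt7 (0.85). Gne makes the precursor of sialic acid, and Galnt7 belongs to the same enzyme family as Galnt12. St3gal4 was closest to Prkcd (0.94), Apaf1 (0.92) and Mxd1 (0.9), and Gcnt3 to Mapk3 (0.91), Rrbp1 (0.89) and Golt1a (0.87). C1galt1 shared Mapk3 as its closest gene (0.85), followed by Tmem183a (0.81) and Uap1 (0.79), the last a maker of the sugar donor UDP-N-acetylglucosamine. B4galt4 was closest to Bace2 (0.87), Capn8 (0.87) and Sytl4 (0.84). St3gal1 was closest to Kcnk6 (0.86), Eif2ak4 (0.82) and Myo5c (0.82). Galnt12 was closest to Pdxdc1 (0.83), Adcy6 (0.82) and Acbd3 (0.79), and St6gal1 only to Tspan5 (0.72), Tnfrsf26 (0.71) and Wbp1l (0.71). St6galnac1 never reached 20 CPM, and its closest gene was the mucin Muc3a (0.82), then LOC102551884 (0.73) and Slc2a10 (0.72). Its 148 UMIs over all libraries are few for 19 classes, and these r are not read as a likeness.

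The second question was whether the enzymes differed between SAP and CON rats. Over all epithelial nuclei (31500 nuclei), St6gal1 and St3gal4 were higher in every SAP rat than in every CON rat, by fitted log2 fold changes of 1.82 and 1.25, and neither passed the test across all genes. No enzyme passed it over all epithelial nuclei, over all nuclei, or in any of 128 tests of an enzyme in a class. Counts were compared with edgeR's quasi-likelihood test and Benjamini-Hochberg adjustment, and called means that the adjusted p was below 0.05 with a log2 fold change of 0.5 or more in size. It called 0% of 17094 genes over all epithelial nuclei, 0% of 19187 over all nuclei and 0.00777% of 141600 gene tests summed over the 16 classes. At an unadjusted p under 0.05, edgeR counted 2 of the 10 enzymes over all epithelial nuclei, St6gal1 and St3gal4, both higher in SAP, where 4.99% of all genes were. The same 2 were counted over all nuclei, where 3.97% of genes were. In classes, edgeR counted 22 of 128 tests at that level, against 7.73% of all gene tests. Of these, 13 were of St3gal4, 7 of St6gal1 and 2 of C1galt1, in classes of the same rats, so they are not separate repeats. DESeq2, the other tool, called St6gal1 over all epithelial nuclei, where it called 0.931% of genes, and over all nuclei (0.686%). In classes DESeq2 called 2 of 159 enzyme tests, against 0.195% of 371592 gene tests. They were St6gal1 (log2 fold change 2.2, DESeq2 adjusted p 0.000402) and St3gal4 (1.12, DESeq2 adjusted p 0.0448), both in cluster 1. For St3gal4 the groups overlapped in cluster 1, with CON 2 at 226 CPM and SAP 1 at 222. With no filter on low counts, edgeR called 9 of 159 enzyme tests in classes, against 0.577% of 371592 gene tests. Both of these totals take in every gene with at least 1 UMI in the class. The DESeq2 totals also include genes left without an adjusted p. Over all epithelial nuclei, a sum alone cannot tell a changed mix of classes from changed RNA within a class, for which values by class are given below. The p-values of both tools set the group difference against variation between rats, with 3 rats a group. That variation was estimated partly from the other genes.

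**Figure D3:**
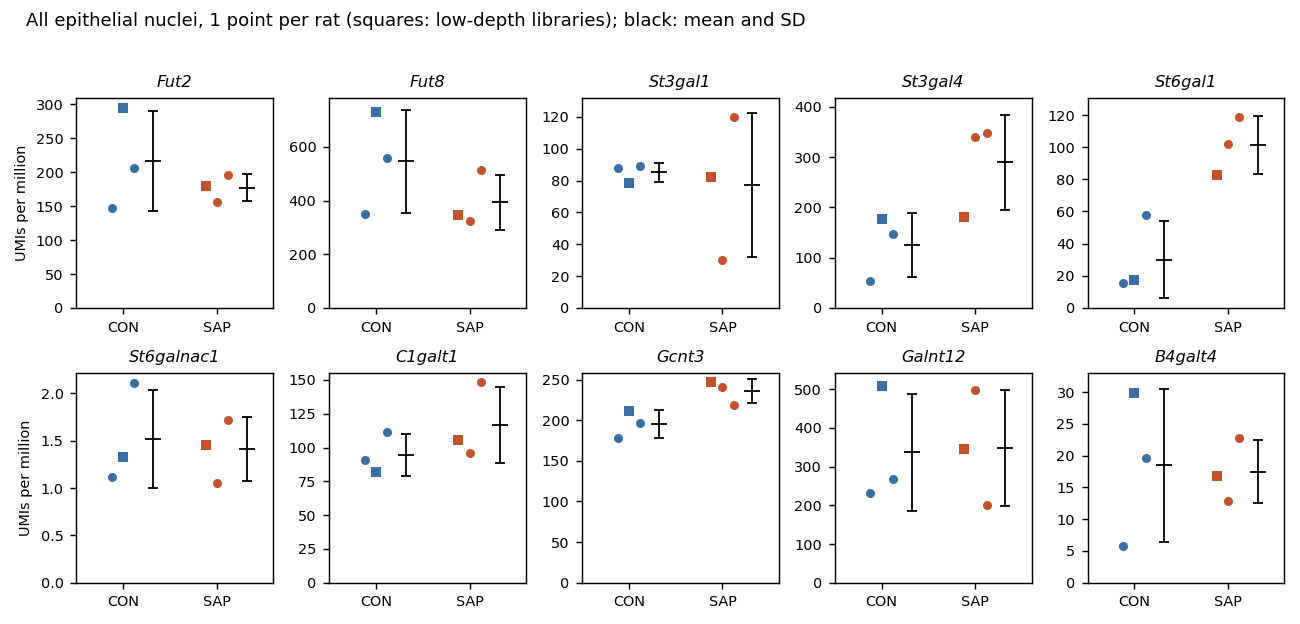
Level of each enzyme over all epithelial nuclei in CPM (axes start at 0 and differ between panels), with 1 point per rat, squares for the low-depth libraries CON 2 and SAP 1, and mean and SD in black. The 3 SAP rats sit above the 3 CON rats for St6gal1 (82.9 to 119 against 15.3 to 57.9), St3gal4 and Gcnt3, the last 2 by narrow gaps (176 to 181 and 212 to 219).

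St6gal1 was at 15.3, 17.2 and 57.9 CPM in the epithelial nuclei of CON 1 to 3, and at 82.9, 102 and 119 in SAP 1 to 3. The groups did not overlap, with CON 3 the highest control. The fitted log2 fold change was 1.82 ± 0.42 (SE), with an edgeR p of 0.00258 and an adjusted p of 0.403, and the exact permutation p of 0.1 (two-sided) is the smallest that 3 against 3 rats allow. With DESeq2 the adjusted p was 0.00917. The SAP to CON ratio was 4.82 in the low-depth pair and 3.02 in the other 4 libraries, and without the low-depth libraries the log2 fold change was 1.56 ± 0.47 with an edgeR adjusted p of 0.984.

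In single classes, St6gal1 was higher in SAP in all 14 that could be tested, by log2 fold changes of 0.36 to 2.19, with none called by edgeR. These classes come from the same rats and are not separate repeats. Cluster 1 nuclei had 9.23, 16.6 and 40.7 in CON 1 to 3 and 91.4, 91.9 and 97.02 in SAP 1 to 3, a log2 fold change of 2.19 ± 0.44 (edgeR adjusted p 0.225). Enterocyte-like nuclei had 21.1, 14.3 and 92.9 in CON and 137, 141 and 204 in SAP (1.95 ± 0.61, edgeR adjusted p 0.643). In both classes the groups did not overlap, and CON 3 stood far above CON 1 and CON 2. The enterocyte-like class pools clusters 3, 7 and 12, and its make-up differed, since cluster 7 was 3.31% ± 1.47 (SD, n = 3) of epithelial nuclei in CON and 9.6% ± 3.07 in SAP. In cluster 7 itself, St6gal1 was at 33.6, 22.1 and 157 in CON and 158, 194 and 276 in SAP, with CON 3 just below SAP 1. In cluster 3 it was at 23.1, 11.0 and 59.1 in CON and 99.8, 112 and 156 in SAP. Single clusters of the class were not tested. Without CON 3, edgeR called St6gal1 in cluster 1 (2.93, adjusted p 0.029), where it called 0.0509% of genes, and in enterocyte-like nuclei (3.04, adjusted p 0.0452), where it called 0.195%. Goblet-like nuclei had 47, 33.2 and 91.7 in CON and 152, 124 and 150.4 in SAP (1.37 ± 0.34, edgeR adjusted p 0.463). Outside the epithelium the log2 fold changes ran from 0.36 to 0.89, for example 0.89 ± 0.3 in SMC-like nuclei. Whether classes differed in this was not tested, and the part of free RNA was not tested either. The epithelial gene Cdh17 had SAP to CON ratios of 1.93 in SMC-like, 1.88 in T-like and 2.23 in endothelial-like nuclei, and those of Epcam were 1.36, 1.36 and 1.23. In the same order, Vil1 had 1.11, 1.48 and 1.33 and Elf3 had 1.27, 1.28 and 1.09. The goblet marker Muc2 had 0.697, 0.637 and 1.06, and the goblet marker Fcgbp had 0.935, 0.916 and 1.21.

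St3gal4 was at 54.6, 176 and 147 in the epithelial nuclei of CON 1 to 3 and at 181, 339.8 and 349 in SAP 1 to 3. The groups stood apart by a narrow gap, between CON 2 and SAP 1, the low-depth libraries. The log2 fold change was 1.25 ± 0.34 (SE), with an edgeR p of 0.00667 and an adjusted p of 0.403 (exact permutation p 0.1). Within the low-depth pair the ratio of SAP to CON was 1.03, and in the other 4 libraries it was 3.43, so the difference was not seen within that pair, which holds 1 rat a group. Without that pair the log2 fold change was 1.7 ± 0.41 (edgeR adjusted p 0.984).

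By class, St3gal4 was higher in SAP in all 15 tested, with log2 fold changes of 0.6 to 1.6 and an unadjusted edgeR p under 0.05 in 13, and none was called. Of these, 7 classes, 6 of them at that p, lie outside the epithelium, where St3gal4 stood at 56.6% to 84.4% of its epithelial level, and whether they count the same free RNA again was not tested. The 15 classes also come from the same rats and are not separate repeats. Enteroendocrine-like nuclei had the largest value, with 47.6, 77.2 and 57.2 in CON and 96.2, 174 and 223 in SAP (1.6 ± 0.35, edgeR adjusted p 0.138). This rests on few counts, 164 UMIs of St3gal4 over the 6 rats, with 31 nuclei of the class in the smallest library. The mean of St3gal4 there, 112 CPM, was below the 118 of SMC-like nuclei. Cluster 8 (107), Paneth-like (102) and stem/TA-like nuclei (95.4) were also below SMC-like nuclei. For these classes, too, the part of free RNA was not tested. Goblet-like nuclei had 65.8, 215 and 144 in CON and 219, 289 and 365 in SAP (1.12 ± 0.36, edgeR adjusted p 0.463), with no overlap. Enterocyte-like nuclei, the class with the most St3gal4, had 172, 366 and 422 in CON and 319, 481 and 772 in SAP (0.8 ± 0.33, edgeR adjusted p 0.647), and these groups overlapped. Of the clusters pooled in that class, cluster 7, with a larger share of epithelial nuclei in SAP, had the highest mean of St3gal4 over all rats. It was at 535, with 410 in cluster 3 and 210 in cluster 12, and the part of this mix was not tested. Enterocyte-like nuclei made up 24.7% ± 7.48 (SD, n = 3) of epithelial nuclei in SAP and 12.3% ± 2.41 in CON. With each epithelial class given the same weight, the mean log2 fold change was 1.24 for St3gal4 over 8 classes and 1.55 for St6gal1 over 7. Such a mean cannot set apart the mix of clusters within the enterocyte-like class or free RNA counted in other classes, and neither was tested.

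**Figure D4:**
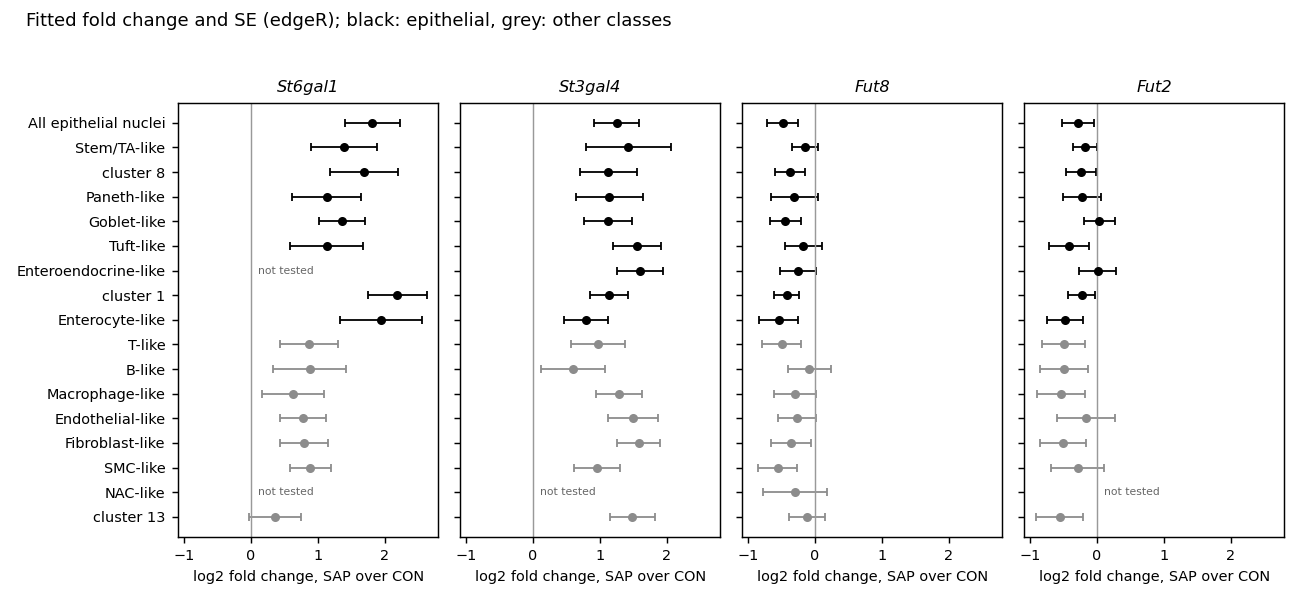
Fitted log2 fold change of SAP over CON with its SE (edgeR) for 4 enzymes, over all epithelial nuclei and in each class tested, epithelial classes in black and others in grey. St6gal1 lay between 0.36 and 2.19 and St3gal4 between 0.6 and 1.6, Fut8 was below 0 in 16 of 16 classes, and no value was called. The classes come from the same rats and are not separate repeats.

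Fut8 was at 349, 730 and 559.9 in CON 1 to 3 and 346, 325 and 512 in SAP 1 to 3. The groups overlapped, with CON 2 highest, and the log2 fold change was -0.48 ± 0.23 (edgeR adjusted p 0.484). Its fitted value was below 0 in 16 of 16 classes, from -0.56 to -0.08, with none called. These classes come from the same rats, CON 2 among them, and are not separate repeats. The part of free RNA was not tested, and the share of all genes with the same sign in every class was not counted. The SAP to CON ratio of Fut8 over all epithelial nuclei was 0.474 in the low-depth pair and 0.921 in the other libraries. Fut2 was at 148, 294 and 207 in CON and 179, 156 and 196 in SAP (-0.28 ± 0.23, edgeR adjusted p 0.679). Here too CON 2 stood highest and the rest overlapped, and in goblet-like nuclei, where Fut2 was highest, the value was 0.04 ± 0.23.

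Gcnt3 was at 178, 212 and 196 in CON 1 to 3 and 247, 241 and 219 in SAP 1 to 3. The groups did not overlap, but the log2 fold change was small, 0.26 ± 0.25 (edgeR adjusted p 0.729). Groups stood apart with SAP higher for 3 of 10 enzymes here, against 5.28% of all genes tested. Summed over classes this held for 16 of 128 enzyme tests (5.01% of all gene tests), and SAP was lower without overlap in 3 (6.81%). Of the 16, 6 were of St3gal4, 6 of St6gal1, 3 of C1galt1 and 1 of Gcnt3, in classes of the same rats. C1galt1 was at 90.4, 81.8 and 112 in CON and 106, 95.6 and 148 in SAP (0.23 ± 0.23, edgeR adjusted p 0.725), and the groups overlapped. In cluster 1 its groups did not overlap, at 75.9, 71.4 and 92.8 in CON and 93.4, 93.9 and 137 in SAP (0.5 ± 0.2, edgeR adjusted p 0.337).

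The remaining enzymes varied more between rats of a group than between groups. Galnt12 was at 232, 509 and 268 in CON and 344, 498 and 199.9 in SAP (0.11 ± 0.45, edgeR adjusted p 0.944), highest in CON 2 and SAP 2. St3gal1 was at 88, 78.5 and 89.1 in CON and 82.5, 29.8 and 119.7 in SAP (-0.26 ± 0.43, edgeR adjusted p 0.844), and SAP 2 was the low library. B4galt4 was at 5.85, 29.9 and 19.6 in CON and 16.9, 12.8 and 22.7 in SAP (-0.01 ± 0.44, edgeR adjusted p 0.994), with CON 1 lowest. In goblet-like nuclei, where it was counted most, B4galt4 had 37.3, 108 and 76.5 in CON and 115, 96.9 and 80.4 in SAP (0.49 ± 0.36, edgeR adjusted p 0.731). St6galnac1 was at 1.12, 1.33 and 2.11 in CON and 1.46, 1.06 and 1.72 in SAP, and a change was not detectable at this depth.

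The third question was how the 10 enzymes compare with the rest of the machinery. A list of 118 genes of glycan synthesis and removal, the 10 included, held 116 genes of the tables, and 99 were tested over all epithelial nuclei. edgeR called 0 of 99, with 54 higher and 45 lower in SAP and a median log2 fold change of 0.04, beside 0.0013 over all genes. At an unadjusted p under 0.05, edgeR counted 6 of the 99 as higher in SAP, St6gal1 and St3gal4 among them, where 4.99% of all genes were. It counted 4 as lower, and the share of all genes lower at that p is not given here. Without the 10 enzymes, 4 of 89 were higher and 4 lower. DESeq2 called 3 genes of the list, St8sia6, St6gal1 and Neu1, where it called 0.931% of all genes.

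By step, 12 of 17 genes of mucin initiation tested were higher and 5 lower (median 0.11), and 4 of 7 genes of core synthesis were higher (median 0.04). Of 17 genes of chain extension, 10 were higher (median 0.07). Fucosylation split evenly, 7 higher and 7 lower of 14 (median -0.01), and N-glycan branching likewise, 6 and 6 of 12 (median -0.01). Of 21 genes of sialylation, 9 were higher and 12 lower (median -0.14). Removal of sialic acid and fucose had 3 of 7 higher (median -0.07), and 4 tested genes of sulfation had 3 higher (median 1.04). edgeR called no gene of these steps over all epithelial nuclei. St6gal1 and St3gal4 lay above the sialylation list's median.

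St8sia6, a sialyltransferase that adds sialic acid to sialic acid, was the only gene of the list that edgeR called in any class. It was lower in SAP in all 15 classes tested, at log2 fold changes of -1.84 or lower, and was called in 10 of them. Over all epithelial nuclei it had 188, 331 and 320.4 CPM in CON 1 to 3 and 4.58, 1.22 and 7.32 in SAP 1 to 3, and its adjusted p there was 0.0932 with edgeR. In cluster 1 its log2 fold change was -6.83 ± 0.54 (edgeR adjusted p 0.0204). Neu1, the lysosomal sialidase, had 17.5, 17.7 and 32.4 in CON and 64, 139 and 39.2 in SAP (1.92 ± 0.53, edgeR adjusted p 0.403). The groups did not overlap, and SAP 2 was the highest.

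**Figure D5:**
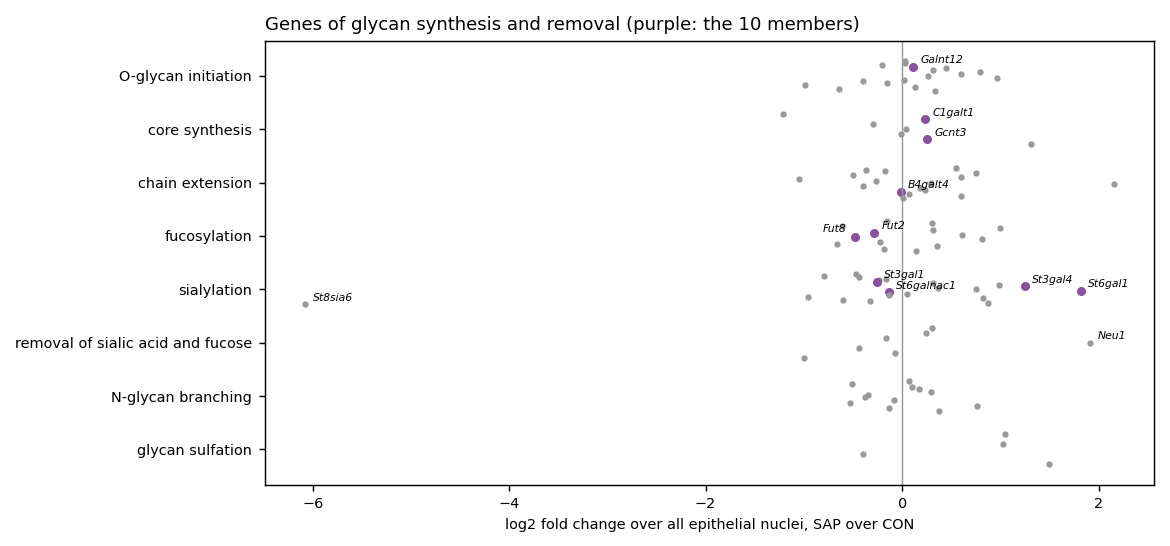
Fitted log2 fold change of SAP over CON over all epithelial nuclei for the 99 tested genes of glycan synthesis and removal, 1 point per gene in rows by step, the 10 enzymes in purple. St6gal1 (1.82) and St3gal4 (1.25) lie right of the other 8, and St8sia6 lies far left at -6.08.

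Among genes of the list chosen after their values were seen, Gcnt4, another core-branching enzyme, had means of 13.8 in CON and 32.4 CPM in SAP and was not called (1.31 ± 0.39, edgeR adjusted p 0.407). Gne had means of 246 in CON and 147 in SAP (-0.79 ± 0.28, edgeR adjusted p 0.422), and Galnt7 had 334 and 218 (-0.64 ± 0.25, edgeR adjusted p 0.431).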

How the data were processed

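The authors isolated ileal nuclei, made DNBelab C V3.0 libraries, and used dnbc4tools to count the UMIs of each gene in each barcode. The deposited tables hold these counts as whole numbers without normalization; the matrix headers name PISA 1.0, and the submitters' processing notes name build mRatBN7.2 and Seurat 4.3.0. Their annotation is not given in the sources used here. Stereo-seq was not analysed here.

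Nuclei were kept by the study's stated limits, with a minimum of 1200 UMIs and of 500 genes and a mitochondrial share up to 5%. The study reports fewer nuclei than the 40970 kept here, and the reason is not given in the sources used here. Counts were clustered in scanpy 1.11.5 (2000 variable genes without the 10 enzymes and the glycan list, 30 principal components, Harmony rewritten in numpy, 20 neighbours, Leiden resolution 0.8, 21 clusters). Mitochondrial, Defa, RT1 and Reg3 genes and a set of genes named in the paper were also left out of the variable genes. Among these were Muc2, Anpep, Smoc2, Defa24 and Pla2g2a, which still served as markers for naming. The cluster richest in Pax5 was split at resolution 0.2 after it was seen to hold B-like and macrophage-like nuclei. A cluster was named where the mean log2 marker ratio was at least 0.5, led the next class by at least 1.2 and had 3 markers detected. That lead was raised from 0.8 after the names were seen, which left cluster 8 out of the Paneth-like class. In all, 3 clusters with 21% of nuclei were unnamed. Scrublet's automatic threshold marked no nucleus, so doublets were kept, and the top 5% by score (2048 nuclei) were removed in an alternative.

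UMIs were summed per rat and class. The test was the robust quasi-likelihood test of edgeR 4.0.16 under R 4.3.3, after filterByExpr and TMM, adjusted over all genes of each fit. The SE is the fold change over the root of F. DESeq2 1.42.0 was an alternative. The test was tried on simulated counts of 17094 epithelial genes. There, 99% of genes changed by a log2 fold change of 2 and 38.1% of those changed by 1 were called, with 7 false calls. Every simulated gene had the same fixed spread between rats, not estimated from these data. These shares therefore do not show how many real changes of that size would be called here. The enzymes, lists and markers were chosen with earlier results of these data known. Genes were named by rule: the 10 enzymes, list genes called in a fit and otherwise those with the 3 smallest p over all epithelial nuclei, and the 3 genes most alike to each enzyme. RefSeq lists 4 Galnt12 pseudogenes, of which 0 are in the count tables, so reads of near-identical copies could have been split or lost, and strand use is not given in the sources used here.

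The labels give both groups replicate numbers 1 to 3 without saying what they share. Over all nuclei, the r of same-numbered samples was 0.577, 0.183 and 0.524, and that of other pairs ran from -0.616 to 0.144. By these correlations alone the numbers were taken to pair the samples, and a replicate block was fitted as an alternative. Over all epithelial nuclei same-numbered samples had 0.583, 0.0672 and 0.439. There, CON 3 with SAP 2 (0.154) and CON 2 with SAP 1 (0.0855) lay above the pair numbered 2, so its pairing is uncertain.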

Additional observations from a re-analysis of the deposited data

How the results depend on the processing

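No enzyme was called over all epithelial nuclei or over all nuclei under any alternative except DESeq2, which called 1 in each, St6gal1. Over classes, the 0 calls of 128 tests became 2 of 159 with DESeq2 (St6gal1 and St3gal4 in cluster 1). They became 9 of 159 with no filter on low counts (4 of St6gal1, 5 of St3gal4). When 1 library was left out there were 0 to 2 calls, the 2 being St6gal1 without CON 3. Of the glycan list over all epithelial nuclei, the 0 calls became 3 with DESeq2, 1 with no filter, 1 with at most 1% mitochondrial UMIs, 1 without integration, and 0 to 1 when 1 library was left out, the 1 being St8sia6 without SAP 2. The replicate block, with the samples paired by number, called 0 enzymes over all nuclei, all epithelial nuclei and classes and 0 genes of the list over all epithelial nuclei, so it changed no call of these, with log2 fold changes of 1.98 for St6gal1 and 1.28 for St3gal4. The depth class as a covariate also called 0 in each, as did leaving out both low-depth libraries. Counting cluster 8 as Paneth-like, run for class tests alone, called 0 of 9 tests. These last 2 were chosen after seeing the data.

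Over all epithelial nuclei, St6gal1 kept its direction under 17 alternatives, from 1.53 to 2.45, as did St3gal4, from 1.03 to 1.7. Small differences turned: B4galt4 was 0.26 with at most 1% mitochondrial UMIs, 0.098 with the depth covariate, 0.011 with DESeq2 size factors, 0.0067 without doublets, 0.13 with the block and 0.38 without the low-depth libraries, and ran from -0.34 to 0.48 with 1 library left out. With 1 library left out, St3gal1 ran from -0.504 to 0.11, Galnt12 from -0.27 to 0.46 and St6galnac1 from -0.26 to 0.013. The causes were not tested. St6galnac1 and B4galt4 had the fewest UMIs of the enzymes, 148 and 1557 over all libraries, and the part of depth was not tested.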
